A study of Mus musculus with 16 samples.

Results

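The 10 genes described here govern how much glucose enters a cell and where its carbon goes, and they were followed in a mouse kidney cell line after oxygen and nutrient loss and recovery. They are the glucose transporter Slc2a1, the hexokinases Hk1 and Hk2, the phosphofructokinase subunits Pfkl, Pfkm and Pfkp, the regulator Pfkfb3, the pyruvate dehydrogenase kinase Pdk1 and the lactate dehydrogenase subunits Ldha and Ldhb. They were chosen by name, as the probe sets to which the array annotation gives one of these 10 symbols, and each gene had 1 probe set. They are 10 of 19505 genes named on the array. The choice was made with earlier results of these data known, so their shares beside those of all probe sets are descriptions. The cells, BU.MPT, are a proximal tubular line grown at 39 °C without interferon-γ. As background, the line comes from a mouse with a temperature-sensitive viral large T antigen, which is inactive under these conditions.

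The 16 arrays fell into 4 groups of 4. H/R+B12 cells were deprived of oxygen (about 1%), glucose and serum for 3 h, returned to normal medium for 1 h, and given 0.3 µM cyanocobalamin (vitamin B12). H/R cells had the same hypoxia and reperfusion without the vitamin. Control+B12 cells stayed in normal culture (glucose at 4.5 g/L, serum at 10%, oxygen at 21%) plus 0.3 µM cyanocobalamin, and control cells in normal culture alone. Oxygen, glucose and serum were withdrawn and returned together in both H/R groups, so their parts cannot be told apart. The titles give B12 for all treated samples, while the free-text descriptions of later replicates count the vitamin's number upward, and the titles were followed. Whether the replicates came from separate cultures is not said in the labels. Each p-value therefore reflects only the spread between these samples, which may be technical.

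The log2 signal had array medians of 5.21 to 5.37, and within groups pairs of arrays correlated at 0.990 to 0.994. The medians were slightly lower after H/R: 5.24 to 5.29 in H/R and 5.31 to 5.36 in control cells. They were 5.215 to 5.282 in H/R+B12 and 5.284 to 5.375 in control+B12 cells. Median centring moved the median H/R change over all probe sets from -0.02 to 0.05, and with B12 from -0.04 to 0.05. Of 11 measured proximal tubule markers 2, the water channel Aqp1 and the peptidase Mme, lay above the 95th percentile of the negative control features in all 16 arrays, and 9 lay above it in none, among them the uptake receptors Lrp2 and Cubn. Of 6 epithelial markers 3 were above it throughout. The 6 distal nephron markers and the 8 endothelial, fibroblast and leukocyte markers were above it in no array, with list means of 3.57 to 4.11 against negative control medians of 5.72 to 6.23. That percentile is a strict limit, and a gene below it may still be expressed. Even the negative control medians lay above the array medians, and Pfkm, brighter on average than 73.1% of probe sets, exceeded the percentile in 2 of 16 arrays. Aqp1 and Mme were lower after H/R (-0.79 and -0.52 on the log2 scale, and -0.87 and -0.61 with B12) and the keratin Krt18 was higher (0.82, and 1.43 with B12). Their part in the results was not tested.

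Glucose enters most cells through facilitative transporters and is trapped by hexokinase. Phosphofructokinase sets the committed step of glycolysis, and its most potent activator is made by the bifunctional enzymes of the Pfkfb family. Pyruvate then either enters mitochondria, which pyruvate dehydrogenase kinases restrain, or is reduced to lactate by lactate dehydrogenase. Low oxygen stabilises the hypoxia-inducible factor HIF, and Slc2a1, Hk2, Pfkfb3, Pdk1 and Ldha are textbook HIF targets. The proximal tubule of the kidney normally burns little glucose: it lives mainly on mitochondrial oxidation and makes glucose instead.

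HIF binds DNA at a core spelled ACGTG or GCGTG. The 250 bases before the start of transcription are shown for the 5 genes that passed the test after H/R and for Ldha, the partner of Ldhb, to show where these letters stand. The sequences are from RefSeq (build GRCm38.p6), 5′ to 3′ on the gene's own strand, at the most upstream start listed for each gene, and all 10 genes were matched. Capitals mark ACGTG or GCGTG on either strand (CACGT and CACGC are the same words on the opposite strand), and CACGTG reads as a match on both.
Slc2a1, chr4:119108495-119108744, plus strand: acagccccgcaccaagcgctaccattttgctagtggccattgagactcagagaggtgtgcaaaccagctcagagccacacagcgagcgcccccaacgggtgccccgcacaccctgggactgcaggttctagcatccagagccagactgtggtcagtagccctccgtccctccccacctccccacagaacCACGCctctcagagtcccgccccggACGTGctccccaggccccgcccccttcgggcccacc
Hk2, chr6:82774455-82774704, minus strand: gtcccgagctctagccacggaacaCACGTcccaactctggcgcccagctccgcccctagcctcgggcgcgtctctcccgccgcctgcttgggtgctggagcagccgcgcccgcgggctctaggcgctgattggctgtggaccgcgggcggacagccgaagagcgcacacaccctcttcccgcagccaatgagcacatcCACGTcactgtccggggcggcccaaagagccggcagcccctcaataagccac
Pfkp, chr13:6648772-6649021, minus strand: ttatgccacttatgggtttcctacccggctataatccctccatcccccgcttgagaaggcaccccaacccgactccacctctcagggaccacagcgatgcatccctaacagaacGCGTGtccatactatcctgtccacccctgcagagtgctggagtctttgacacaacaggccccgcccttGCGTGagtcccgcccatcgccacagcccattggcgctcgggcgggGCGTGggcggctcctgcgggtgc
Pdk1, chr2:71872974-71873223, plus strand: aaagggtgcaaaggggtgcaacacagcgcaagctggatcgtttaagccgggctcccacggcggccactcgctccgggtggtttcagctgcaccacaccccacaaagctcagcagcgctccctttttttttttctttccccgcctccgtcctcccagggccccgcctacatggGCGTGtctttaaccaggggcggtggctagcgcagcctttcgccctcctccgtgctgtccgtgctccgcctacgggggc
Ldha, chr7:46845554-46845803, plus strand: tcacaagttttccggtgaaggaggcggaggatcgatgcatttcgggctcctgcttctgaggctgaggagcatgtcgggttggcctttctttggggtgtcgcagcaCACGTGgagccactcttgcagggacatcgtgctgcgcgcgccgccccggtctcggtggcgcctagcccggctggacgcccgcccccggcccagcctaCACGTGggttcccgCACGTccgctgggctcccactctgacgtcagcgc
Ldhb, chr6:142507958-142508207, minus strand: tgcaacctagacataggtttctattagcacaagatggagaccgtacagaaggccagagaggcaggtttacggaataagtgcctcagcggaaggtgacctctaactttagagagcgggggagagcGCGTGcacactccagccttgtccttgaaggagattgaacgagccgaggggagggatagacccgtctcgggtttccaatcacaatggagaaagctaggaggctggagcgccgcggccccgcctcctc
Of the 10 genes 9 held at least 1 of the words in this window, against 38.6% of the most upstream windows of 27025 genes. ACGTG was found in 5 of 10 (16.5% of those most upstream windows) and GCGTG in 5 of 10 (28.3%). Ldha had the most matches, 5, counting both strands. Hk1 had none at its most upstream start and 3 at its other one. Matches stood in genes that passed the test after H/R and in genes that did not, and Ldhb, the gene that fell, held 1. A match in these letters is a description and not evidence of binding.

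After H/R the transporter and the inducible hexokinase rose by far the most, Pfkp and Pdk1 rose less, and Ldhb fell. Of the 10 genes 4 rose and 1 fell, and 5 did not pass the test, where 17.6% of all 22206 probe sets passed in either direction (8.11% higher and 9.54% lower). The same 5 genes passed in the same direction in H/R+B12 against control+B12, a comparison of 8 other arrays in which 18.7% of probe sets passed (9.04% higher and 9.61% lower). Such sharing was common: 75.0% of all probe sets that passed without B12 passed in the same direction with it, and 71.0% the other way round. Both comparisons also use the spread estimated over all 16 arrays. The median log2 change of the 10 genes was 0.39 without B12 and 0.40 with it, against -0.02 and -0.04 over all probe sets. The arrays of the groups did not overlap for 4 genes higher and 1 lower in H/R cells (9.88% and 11% of all probe sets), and for 5 higher and 1 lower in H/R+B12 cells (10.3% and 11.2%). In bulk RNA, fewer cells with a transcript and less of it per cell cannot be told apart.

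**Figure D1:**
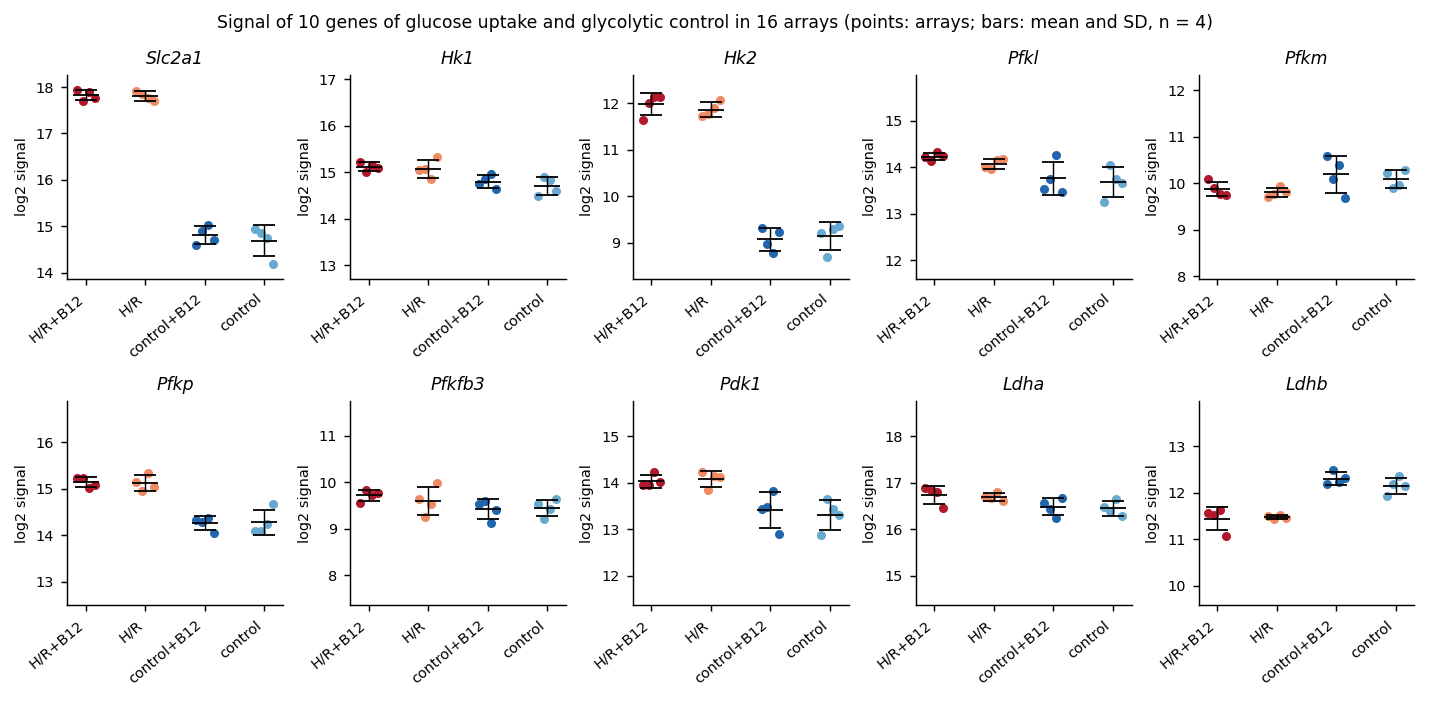
Log2 signal of each gene (vertical axis, all panels spanning the same number of log2 units) in the 4 groups (horizontal axis); points are arrays, bars the mean and SD of 4. The H/R+B12 and H/R points of Slc2a1 and Hk2 stand well above those of both control groups, Pfkp and Pdk1 stand above by less, and Ldhb stands below.

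Slc2a1, the basal glucose transporter of most cells, had the largest change. Its log2 signal was 17.92, 17.85, 17.77 and 17.69 in H/R cells and 14.94, 14.86, 14.75 and 14.20 in control cells. With B12 it was 17.93, 17.71, 17.89 and 17.77 in H/R+B12 cells and 14.61, 14.90, 15.03 and 14.70 in control+B12 cells. Neither pair of groups overlapped. The H/R arrays lay close together (SD 0.10), while the control arrays were spread more widely (SD 0.34), with control 4 lowest. The change was 3.12 ± 0.16 on the log2 scale without B12 (SE, n = 4 against 4, adjusted p = 6.04e-09), an 8.68-fold rise with a 95% interval of 6.86 to 10.98. With B12 it was 3.01 ± 0.16 (adjusted p = 4.67e-09), or 8.07-fold. It was the 15th highest change of 22206 probe sets without B12 and the 22nd highest with it.

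Hk2, the inducible hexokinase that binds the outer mitochondrial membrane, had the next largest change. Its arrays read 11.72, 11.76, 11.89 and 12.06 in H/R cells against 9.20, 8.69, 9.30 and 9.36 in control cells. They read 11.63, 12.003, 12.14 and 12.14 in H/R+B12 cells against 9.32, 8.96, 8.77 and 9.23 in control+B12 cells. The groups were again apart, with a gap far wider than the spread inside any group. The fitted rise was 2.72 ± 0.18 without B12 (6.61-fold, adjusted p = 7.03e-08) and 2.91 ± 0.18 with it (7.51-fold, adjusted p = 2.29e-08), ranking 25th and 28th among all probe sets. Its control values lay above the median of the negative control features but below their 95th percentile (10.1 to 10.6), while all its H/R values lay above that percentile. The fitted folds and ranks therefore rest on dim control values. With the mean of that percentile in their place, the Hk2 mean was 2.93-fold higher in H/R than in control cells. It was 3.19-fold higher in H/R+B12 than in control+B12 cells. These least folds come from means and carry no interval.

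Hk1, the constitutive hexokinase, did not pass the test. It ranged over 14.85 to 15.32 in H/R cells and 14.48 to 14.90 in control cells, which overlapped, and over 15.01 to 15.22 in H/R+B12 cells and 14.63 to 14.96 in control+B12 cells, which did not. The log2 changes were 0.37 ± 0.14 (adjusted p = 0.0817) and 0.32 ± 0.14 (adjusted p = 0.133). When arrays were centred on their medians Hk1 passed in both (adjusted p = 0.0327 and 0.0489), and with an intensity trend and robust variances too (adjusted p = 0.0070 and 0.0204). Without B12 it also passed with the negative control covariate (0.0450). Within an array, Hk2 minus Hk1 was -3.21 in H/R and -5.56 in control cells, higher by 2.35 log2 units in H/R cells (exact two-sided permutation p = 0.0286, the smallest possible with 4 against 4; adjusted over 6 tests 0.0429). With B12 it was -3.14 in H/R+B12 and -5.73 in control+B12 cells, higher by 2.59 (exact permutation p = 0.0286, adjusted 0.0429). Hk2 alone already set these groups apart, so the 2 differences add no separate support for its rise. Its control and control+B12 values lay below the 95th percentile of the negative controls, so the sizes of the differences are uncertain.

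Of the 3 phosphofructokinase subunits 1, the platelet-type Pfkp, rose. Its arrays read 15.15, 14.95, 15.34 and 15.03 in H/R cells against 14.09, 14.09, 14.24 and 14.67 in control cells, and 15.23, 15.22, 15.01 and 15.09 in H/R+B12 cells against 14.32, 14.29, 14.37 and 14.04 in control+B12 cells. Neither pair overlapped, though control 4 stood much nearer to the H/R arrays than the rest of its group. The log2 change was 0.84 ± 0.15 without B12 (1.79-fold, adjusted p = 0.000754) and 0.88 ± 0.15 with it (1.84-fold, adjusted p = 0.000525).

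Pfkl, the liver-type subunit, ranged over 13.97 to 14.17 in H/R cells and 13.27 to 14.05 in control cells, with a log2 change of 0.40 ± 0.18 (adjusted p = 0.162). With B12 it ranged over 14.13 to 14.33 in H/R+B12 cells and 13.48 to 14.27 in control+B12 cells, with 0.47 ± 0.18 (adjusted p = 0.0875). Both pairs overlapped and neither passed. Without control+B12 array 3, the highest of its group, the comparison with B12 passed (0.64, adjusted p = 0.0147), as it did with the negative control level as a covariate (adjusted p = 0.0183, and 0.0235 without B12). It also passed with an intensity trend and robust variances (0.0109 with B12 and 0.0343 without) and, with B12, after median centring (0.0368). Pfkm, the muscle-type subunit, had the opposite sign, at -0.28 ± 0.18 and -0.31 ± 0.18 (adjusted p = 0.339 and 0.266), and also did not pass. The difference between Pfkp and Pfkl changed by 0.44 without B12 and by 0.41 with it, which the exact two-sided permutation test did not call (p = 0.114 and 0.0571, adjusted 0.114 and 0.0686).

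Pfkfb3, the hypoxia-inducible member of the family that makes the activator of phosphofructokinase, did not pass the test. It read 9.63, 9.24, 9.53 and 9.97 in H/R cells against 9.52, 9.21, 9.41 and 9.63 in control cells, and 9.55, 9.83, 9.72 and 9.77 in H/R+B12 cells against 9.53, 9.60, 9.12 and 9.41 in control+B12 cells. The groups overlapped in both pairs, and all 16 values lay below the 95th percentile of the negative controls of their own array. The changes were 0.15 ± 0.16 (adjusted p = 0.634; 95% interval -0.20 to 0.50) and 0.30 ± 0.16 (adjusted p = 0.245; -0.04 to 0.65). Its mean signal was still brighter than 70.2% of all probe sets and above the negative control median in all 16 arrays. The intervals describe the signal of a probe set below that percentile and do not bound the change of the transcript.

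**Figure D2:**
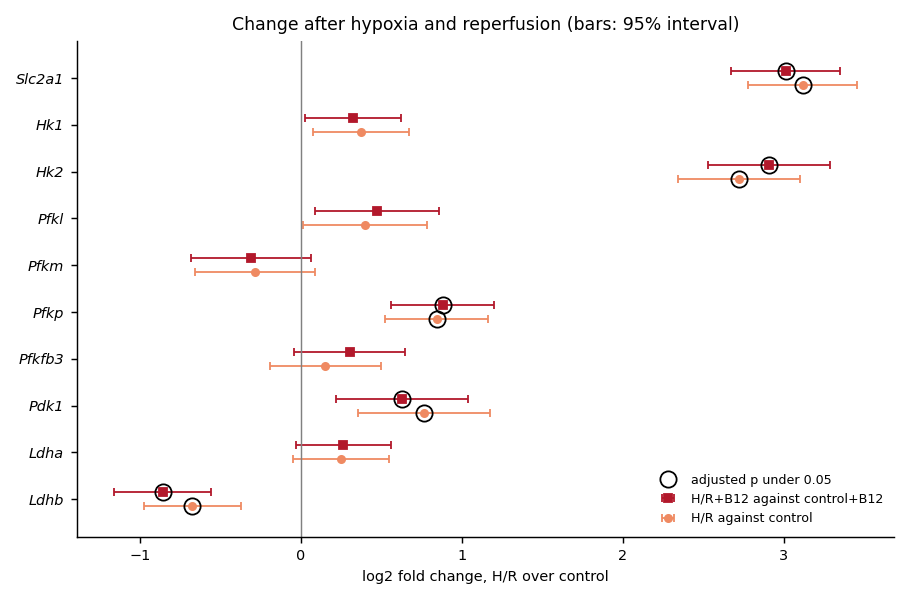
Log2 fold change (horizontal axis) of the 10 genes (vertical axis) after hypoxia and reperfusion, with 95% intervals, for H/R+B12 against control+B12 (squares) and H/R against control (circles); black rings mark an adjusted p under 0.05. The ringed genes are Slc2a1, Hk2, Pfkp, Pdk1 and Ldhb in both comparisons, and the intervals of the 2 comparisons overlap for every gene.

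At the fate of pyruvate, Pdk1 rose and Ldhb fell, while Ldha did not pass the test. Pdk1 phosphorylates and inhibits pyruvate dehydrogenase. It read 14.22, 13.83, 14.14 and 14.11 in H/R cells against 12.88, 13.65, 13.42 and 13.30 in control cells. It read 13.94, 13.94, 14.24 and 14.001 in H/R+B12 cells against 13.42, 13.47, 13.82 and 12.89 in control+B12 cells. Both pairs were apart by a narrow margin, and each control group held 1 array far below its others. The change was 0.76 ± 0.19 without B12 (1.70-fold, adjusted p = 0.0104) and 0.63 ± 0.19 with it (1.54-fold, adjusted p = 0.0319). The call with B12 was lost in 8 of 16 alternatives, among them quantile normalization (0.0667), fitting the 2 groups alone (0.0644) and leaving out control+B12 replicate 1, 2 or 4 or H/R+B12 replicate 2, 3 or 4 (0.0505 to 0.109). The call without B12 held in all 16.

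Ldha, the subunit that favours lactate formation, did not pass the test. It read 16.70, 16.67, 16.81 and 16.61 in H/R cells against 16.47, 16.39, 16.65 and 16.28 in control cells, and 16.88, 16.84, 16.80 and 16.45 in H/R+B12 cells against 16.57, 16.44, 16.25 and 16.67 in control+B12 cells. Both pairs overlapped, and the changes of 0.25 ± 0.14 (adjusted p = 0.28; 95% interval -0.05 to 0.54) and 0.26 ± 0.14 (adjusted p = 0.236; -0.03 to 0.56) did not pass. With an intensity trend and robust variances Ldha passed with B12 (adjusted p = 0.0406).

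Ldhb, the subunit that favours the use of lactate, was the 1 gene of the 10 that fell. It read 11.50, 11.44, 11.53 and 11.46 in H/R cells against 11.94, 12.18, 12.36 and 12.14 in control cells, and 11.57, 11.53, 11.63 and 11.07 in H/R+B12 cells against 12.20, 12.49, 12.23 and 12.32 in control+B12 cells. The groups did not overlap. The 4 H/R arrays were tightly grouped (SD 0.04), and H/R+B12 4 lay below the rest of its group. The change was -0.68 ± 0.14 without B12 (0.626-fold, adjusted p = 0.00292) and -0.86 ± 0.14 with it (0.551-fold, adjusted p = 0.000413). Within an array, Ldha minus Ldhb was larger by 0.92 log2 units in H/R than in control cells, with ranges of 5.15 to 5.28 and 4.14 to 4.53 (exact two-sided permutation p = 0.0286, adjusted 0.0429). With B12 it was larger by 1.12, with 5.17 to 5.38 in H/R+B12 cells and 3.95 to 4.38 in control+B12 cells (exact permutation p = 0.0286, adjusted 0.0429). On a linear scale the ratio of the Ldha to the Ldhb signal thus changed 1.90-fold and 2.18-fold. Ldhb alone already set these groups apart, so the differences add no separate support for its fall.

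**Figure D3:**
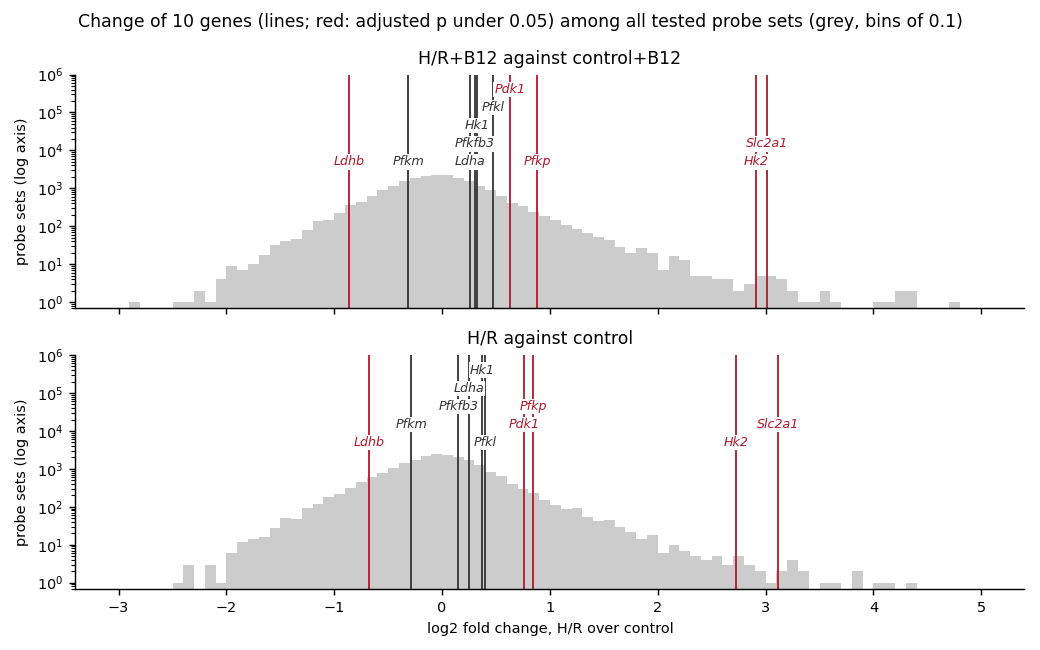
Log2 fold changes of all tested probe sets (grey bars, counts on a log axis) with the 10 genes as lines, red where the adjusted p was under 0.05; upper panel H/R+B12 against control+B12, lower panel H/R against control. Slc2a1 and Hk2 lie in the far right tail, and the other 8 genes lie within the body of the distribution.

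For most of these genes the 4 arrays of a group also lay closer together after H/R. The SD over 4 arrays was smaller in H/R than in control cells for 9 of 10 genes, against 53.3% of all probe sets, and smaller in H/R+B12 than in control+B12 cells for 8 of 10, against 54.0%. The median SD of the 10 genes was 0.13 in H/R and 0.23 in control cells, and 0.13 in H/R+B12 and 0.20 in control+B12 cells. Among deviations from the group means over the 16 arrays, Pfkl and Pdk1 moved most closely together (r = 0.87), followed by Hk1 and Pfkl (0.70). Slc2a1 and Hk2 ran opposite within groups (-0.64). Single arrays weighed on several genes at once. Control 1 was the lowest of its group for Hk1, Pfkl and Pdk1, and control+B12 4 for Hk1, Pfkl, Pfkm, Pfkp and Pdk1. The genes share arrays, so the counts of smaller SDs and the correlations are descriptions, and a difference in spread was not tested.

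Across the 16 arrays the genes whose signal followed Slc2a1 most closely, among 18580 probe sets of named genes, were Ero1a (r = 0.994), an oxidase of the endoplasmic reticulum, the phosphatase Ptpn12 (0.993), the death receptor Fas (0.992), the collagen prolyl hydroxylase subunit P4ha2 (0.992) and the chemokine Cxcl16 (0.991). All 16 arrays share the step between the H/R and control states, and within groups the same 5 correlated with Slc2a1 at 0.28 to 0.52. The log2 change of Ero1a was 4.12 in H/R against control cells and that of Fas 4.09. The closest to Ldhb were the respiratory chain subunit Ndufb7 (0.964), the cap-binding protein Ncbp2 (0.958), Babam1 (0.958), the lysosomal enzyme Hexa (0.957) and Veph1 (0.956), with 0.57 to 0.86 within groups.

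Of the 10 genes 0 passed the test for vitamin B12, in either state. In H/R+B12 against H/R cells the log2 changes ran from -0.04 (Pdk1) to 0.15 (Pfkl), and in control+B12 against control cells from -0.07 (Hk2) to 0.15 (Ldhb). By limma 0 of 10 genes had even an unadjusted p under 0.05 in either comparison, and 0% of 22206 probe sets passed after adjustment, with 1010 and 1280 probe sets at an unadjusted p under 0.05. All 10 genes overlapped between the groups in both comparisons. Over all probe sets 2.87% did not overlap in each: 1.38% were higher and 1.49% lower in H/R+B12 against H/R cells, and 1.36% and 1.51% in control+B12 against control cells. The 95% intervals of the 20 changes together spanned -0.46 to 0.54, so a change beyond 1.45-fold up or 0.729-fold down lies outside all of them. That does not show that the vitamin had no effect inside these bounds. The bounds concern the array signal. For Pfkfb3, for Pfkm in most arrays and for Hk2 in normal culture, the signal lay below the 95th percentile of the negative controls. There the intervals do not bound the change of the transcript.

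Averaged over both states (n = 8 against 8), the B12 changes were above 0 in 10 of 10 genes but small, at 0.002 for Pfkp to 0.12 for Pfkl. By limma the adjusted p-values were 0.984 to 0.9995, and the intervals lay within -0.27 to 0.39. In H/R cells 8 of 10 were above 0, and in normal culture 7. The averaged change turned its sign in 11 of 23 alternatives for Pfkp and in 5 each for Hk2 and Pdk1. The genes share arrays and no such share of all probe sets was computed, so the count of signs is a description. The interaction, the H/R change with B12 minus that without, passed for 0 of 10 genes (0 also at an unadjusted p under 0.05, where 1071 probe sets lay). It was -0.10 ± 0.23 for Slc2a1, 0.18 ± 0.25 for Hk2, 0.04 ± 0.21 for Pfkp, -0.14 ± 0.27 for Pdk1 and -0.18 ± 0.20 for Ldhb (SE; adjusted p 0.987 to 0.997 over the 10 genes). The interaction intervals were wide, from -0.72 to 0.72 at the extremes. For Slc2a1 the interval was -0.58 to 0.37 around a response of 3.12.

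**Figure D4:**
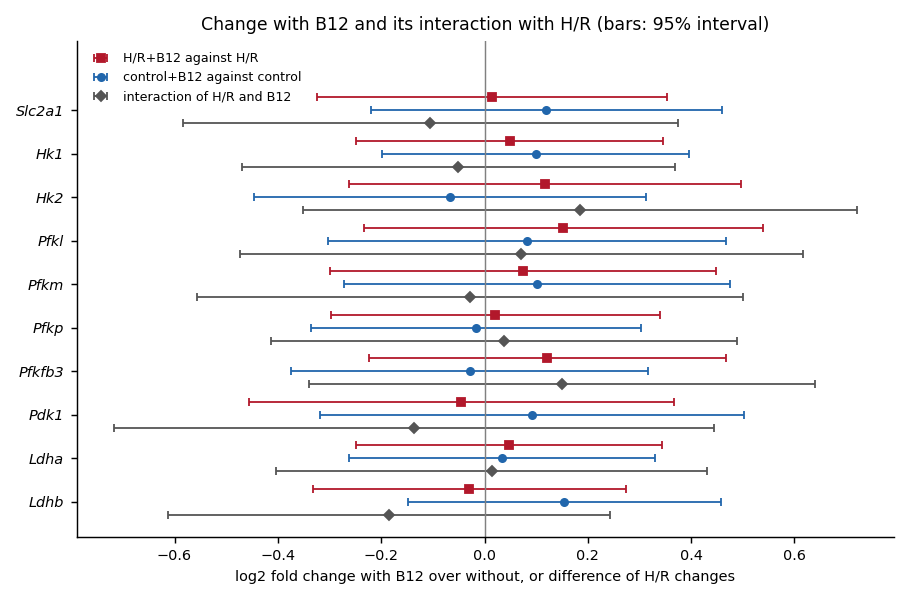
Log2 change with B12 in H/R cells (squares) and in normal culture (circles), and the interaction of H/R and B12 (diamonds), for each gene, with 95% intervals on the horizontal axis. Every interval crosses 0, and the interaction has the widest ones.

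The rest of glucose handling was set beside these genes from lists of 76 measured genes of glucose handling and oxygen sensing outside the 10. After H/R 13 of the 76 rose (17.1%, against 8.11% of all probe sets) and 6 fell (7.89%, against 9.54%), with a median of 0.08. With B12 11 rose (14.5%, against 9.04%) and 6 fell (7.89%, against 9.61%), with a median of 0.11. Of the 13 that rose without B12, 5 were among the 8 oxygen sensing genes and 4 among the 9 glycogen genes. With B12 these were 4 and 4 of the 11, so the shares are not those of glucose handling alone. The lists were chosen with earlier results of these data known, so these shares are descriptions and not a test of the lists. Of the other glucose transporters 0 of 12 passed without B12, with changes of -0.48 to 0.65, and all 12 lay below the 95th percentile of the negative controls in all arrays. With B12 1 of the 12 passed, the transporter Slc2a2 (-1.07 ± 0.36, adjusted p = 0.0485), named after its value was seen and below that percentile in every array.

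Of the core enzymes between phosphofructokinase and pyruvate few passed. The enzymes of the glycolysis list above the 95th percentile of the negative controls in all arrays, Aldoa, Tpi1, Gapdh, Pgk1, Pgam1 and Pkm, had log2 changes of 0.07 to 0.35 without B12 and 0.01 to 0.25 with it. Of 15 measured members of that list 1 rose without B12, the aldolase Aldoa (0.35 ± 0.11, adjusted p = 0.0398), a call lost in 10 of 16 alternatives and not made with B12 (0.25 ± 0.11, adjusted p = 0.155). The 1 that fell, below the 95th percentile of the negative controls in all 16 arrays so that its size is uncertain, was the liver and erythrocyte pyruvate kinase Pklr (-1.09 ± 0.25 without B12, adjusted p = 0.00491, and -1.47 ± 0.25 with it, adjusted p = 0.000475). The list's median was -0.08 and 0.09. The 2 measured genes among the other Pfkfb enzymes and Tigar, which opposes them, did not pass.

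Around pyruvate oxidation, Pdk2, a sister kinase of Pdk1, fell. It averaged 9.53 in H/R against 10.49 in control cells and 9.35 in H/R+B12 against 10.82 in control+B12 cells, fitted changes of -0.95 ± 0.19 (adjusted p = 0.00215) and -1.47 ± 0.19 (adjusted p = 4.93e-05). Its H/R and H/R+B12 values all lay below the 95th percentile of the negative controls, which it exceeded in 6 of 16 arrays. Its control and control+B12 means stood 1.07-fold and 1.49-fold above the mean of that percentile in the H/R and H/R+B12 arrays. These folds of means carry no interval, so the size of the fall is uncertain. The phosphatase Pdp1, which removes the inhibitory phosphate, was at 0.43 ± 0.13 (adjusted p = 0.0332, a call lost in 9 of 16 alternatives) and 0.66 ± 0.13 (adjusted p = 0.00192). The dehydrogenase subunit Dld did not pass without B12 (0.37 ± 0.13, adjusted p = 0.0548) and rose with it (0.51 ± 0.13, adjusted p = 0.00859). Of the 12 measured genes of this list 10 did not pass without B12 and 9 with it.

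In lactate export and use, the monocarboxylate carrier Slc16a1 rose by 0.55 ± 0.14 without B12 (adjusted p = 0.0107) and stood at 0.36 ± 0.14 with it (adjusted p = 0.0934). The D-lactate dehydrogenase Ldhd rose by 0.69 ± 0.17 (adjusted p = 0.0088), with a signal of 3.42 in H/R and 2.73 in control cells, beneath every negative control median, so its size is uncertain. With B12 0 of the 6 genes passed, and Ldhd stood at 0.33 ± 0.17 (adjusted p = 0.218). Of 6 gluconeogenesis genes 1 fell in both comparisons, the glucose phosphatase subunit G6pc3, which like Pklr lay below that percentile in all 16 arrays (-0.82 ± 0.25, adjusted p = 0.0323, lost in 8 of 16 alternatives; -1.16 ± 0.25 with B12, adjusted p = 0.00364).

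The pentose phosphate pathway, which branches off after hexokinase, had 2 of 6 measured genes lower in each comparison. Pgd, a dehydrogenase of the oxidative branch, fell by 0.97 ± 0.16 (adjusted p = 0.000306) and with B12 by 0.81 ± 0.16 (adjusted p = 0.0013). Taldo1, transaldolase, fell by 0.68 ± 0.17 (adjusted p = 0.00964) and by 0.59 ± 0.17 (adjusted p = 0.0218, lost in 4 of 16 alternatives). Rpia, the ribose phosphate isomerase, did not pass without B12 (0.44 ± 0.21, adjusted p = 0.203) and rose with it (0.86 ± 0.21, adjusted p = 0.00862), but lay below the 95th percentile of the negative controls in all 16 arrays. Taldo1 lay below it in all H/R and H/R+B12 arrays, and its H/R and control arrays overlapped. The control and control+B12 means of Taldo1 stood 1.06-fold and 1.14-fold above the mean of that percentile in the H/R and H/R+B12 arrays. These folds of means carry no interval, so the size of its fall is uncertain.

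Glycogen synthesis, the other use of glucose phosphate, held the largest rise among the 76. Glycogen synthase Gys1 rose by 1.79 ± 0.15 without B12 (adjusted p = 4.69e-07) and by 1.79 ± 0.15 with it (adjusted p = 4.16e-07). The branching enzyme Gbe1 rose by 1.54 ± 0.24 and 1.32 ± 0.24 as fitted. All its control and control+B12 values lay below the 95th percentile of the negative controls. Its H/R and H/R+B12 means stood 1.44-fold and 1.37-fold above the mean of that percentile in the control and control+B12 arrays, without an interval. The phosphoglucomutase Pgm1 rose by 1.15 ± 0.16 and 1.20 ± 0.16 and Ugp2, which makes the activated form of glucose, by 0.70 ± 0.16 and 0.86 ± 0.16 (adjusted p at most 0.00445). Of 9 measured genes 4 rose in both comparisons, and 1 fell without B12, the phosphorylase Pygb (-0.60 ± 0.15, adjusted p = 0.00787), which the naming rule had not picked. The list's median was 0.52 without and 0.28 with B12.

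Of 8 genes of oxygen sensing 5 rose without B12 and 4 with it, and 0 fell in either. Egln1, a prolyl hydroxylase that marks HIF for destruction, rose by 1.72 ± 0.15 (adjusted p = 8.49e-07) and 1.74 ± 0.15 (adjusted p = 6.16e-07). The oxygen-regulated subunit Hif1a rose by 1.12 ± 0.15 and 1.22 ± 0.15, and its partner Arnt by 0.80 ± 0.15 and 0.51 ± 0.15 (adjusted p at most 0.0224), the last call being lost in 6 of 16 alternatives (0.0518 to 0.0713). Vhl, which recognises the hydroxylated factor, rose by 0.65 ± 0.16 without B12 (adjusted p = 0.00766) and did not pass with it (0.33 ± 0.16, adjusted p = 0.178). Hif1an, which the naming rule had not picked, rose by 0.69 ± 0.20 (adjusted p = 0.0228) and 0.85 ± 0.20 (adjusted p = 0.00632). It exceeded the 95th percentile of the negative controls in 9 of 16 arrays and in no control+B12 array, so its size with B12 is uncertain. No gene of any list passed with B12 against without, in H/R or in normal culture.

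**Figure D5:**
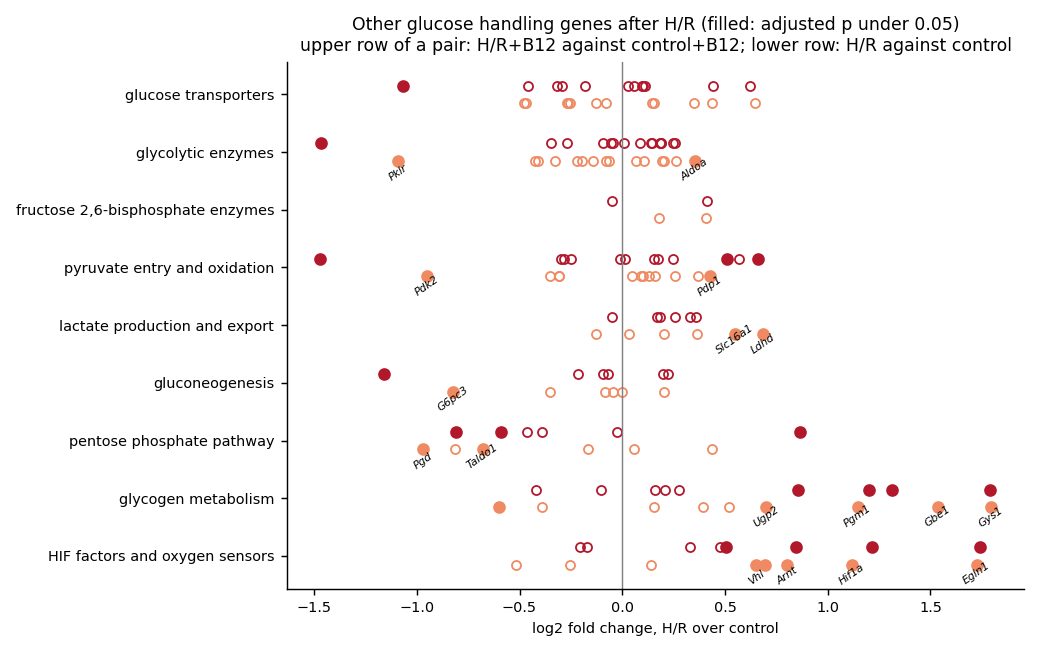
Log2 fold change after H/R (horizontal axis) of the other glucose handling genes and the oxygen sensing genes, grouped by role (vertical axis); the upper row of each pair is H/R+B12 against control+B12, the lower row H/R against control, and filled points passed an adjusted p under 0.05. The filled points furthest to the right are the glycogen genes Gys1 and Gbe1 and the oxygen sensor Egln1, and Pklr and Pdk2 are furthest to the left.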

How the data were processed

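RNA of 16 samples of 1 cell line (4 groups of 4) was hybridised to arrays from 700 pg of input, per the labels' protocols. The deposited values are log2 signals of probe sets, which the authors made with RMA, per the submitters' processing notes. Those notes also name Affymetrix Expression Console and Transcriptome Analysis Console, with versions not given in the sources used here. RMA normally sets all arrays to a common distribution, which removes any change in total RNA, and it compresses changes of dim probe sets.

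Of 28846 features 6640 control features were left out, and the other 22206 probe sets were fitted together over all 16 arrays with limma 3.58.1 in R 4.3.3 (4 group means, empirical Bayes, total degrees of freedom 16.2). P-values are two-sided, adjusted by Benjamini and Hochberg over 22206 probe sets within each of 6 comparisons, with a threshold of 0.05. Intervals are 95%. Differences between 2 genes within an array were tested by exact permutation over arrays. Where a group lay wholly below the 95th percentile of the negative controls, a least fold was computed from that percentile and the other group's mean, without an interval. The fit was tested on simulated data. The number of arrays limits the precision. Probe sets were named from the platform annotation (19572 with 1 symbol, 2634 unnamed here), and promoters came from RefSeq, GRCm38.p6.

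The named genes are the 10 members and, from each list, up to 4 with the smallest p in H/R against control that passed in either H/R comparison; exceptions are named as such. Likeness is Pearson's r over the 16 arrays. The members and lists were chosen with earlier results of these data known. The alternatives were a replicate block, fits of the compared groups alone, array weights, quantile normalization, median centring, a variance trend on intensity with robust estimation, a negative control covariate, dropping the 25% of probe sets with the lowest mean, and dropping each array.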

Additional observations from a re-analysis of the deposited data

Results flagged for a closer look

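In 6 of 116 groups of 4 arrays, 1 array lay so far from the others that its gap to the nearest exceeded Dixon's critical share of the group's range, and chance alone gives that in about 1 group in 20. Among the 10 genes this was Ldhb in H/R+B12 4, at 11.07 on the log2 scale against 11.53 to 11.63 in the other H/R+B12 arrays. Without 1 array at a time, the Ldhb change with B12 was -0.92 to -0.73 and passed each time. Among the other glucose handling genes, Gbe1 stood at 11.11 in H/R 2 (10.72 to 10.78 in the others), and Pdp1 at 11.98 in H/R+B12 2 (12.22 to 12.26). Pgm1 stood at 11.87 in control+B12 3 (11.42 to 11.47), Taldo1 at 9.64 in H/R+B12 4 (9.90 to 9.92), and Ugp2 at 13.77 in control 1 (14.16 to 14.21). The cause was not tested.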

How the results depend on the processing

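Of the H/R responses, those of Slc2a1, Hk2, Pfkp and Ldhb kept their direction and passed in all 16 alternatives of both comparisons, and so did Pdk1 without B12. The number of the 10 genes that passed was 5 to 7 without B12 (5 without any 1 array). With B12 it was 4 to 8: 8 with an intensity trend and robust variances, against 5, and 4 to 6 without any 1 array. It was 0 in every alternative of the 4 comparisons of B12. Groups share replicate numbers, but same-numbered arrays deviated from their group means with correlations of -0.07 to 0.08, so the numbers were not taken as pairs. The negative controls did follow the number in 1 respect: replicate 1 had the highest median of its group in all 4 groups. It was 6.10 in control, 6.08 in control+B12, 6.23 in H/R and 6.17 in H/R+B12 cells, and the reason was not tested. The fit with the replicate block gave 5 genes in each H/R comparison and changed no call of the 10. Fitting the compared groups alone has no counterpart for the B12 average and the interaction, and the next brightest probe set none, since each gene has 1. With 3 arrays against 4 the exact test cannot go below 0.0571, so the within-array differences could not pass there, and none changed direction.

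Values that changed sign were all B12 effects near 0 that passed nowhere. With the negative control covariate Hk1 was at -0.0074 and Pfkp at -0.0023 in H/R+B12 against H/R, Pfkp at -0.012 and Pdk1 at -0.050 for B12 averaged, and Pfkl at -0.024 for the interaction. After quantile normalization Pfkfb3 was at 0.025 in control+B12 against control and Ldha at -0.0052 for the interaction. Leaving out each array in turn also turned the sign of others. In H/R+B12 against H/R these ranges were Hk1 -0.026 to 0.13, Ldhb -0.089 to 0.096, Pdk1 -0.13 to 0.0034, Pfkm -0.00019 to 0.12, Pfkp -0.035 to 0.095 and Slc2a1 -0.023 to 0.055. In control+B12 against control these ranges were Hk2 -0.22 to 0.034, Ldha -0.028 to 0.11, Pdk1 -0.053 to 0.26, Pfkfb3 -0.11 to 0.069, Pfkl -0.087 to 0.20, Pfkm -0.032 to 0.27, Pfkp -0.078 to 0.12 and Slc2a1 -0.043 to 0.20. For B12 averaged over both states these ranges were Hk2 -0.049 to 0.083, Pdk1 -0.049 to 0.11, Pfkfb3 -0.012 to 0.11, Pfkp -0.029 to 0.069 and Slc2a1 -0.014 to 0.11. For the interaction these ranges were Hk1 -0.12 to 0.033, Ldha -0.065 to 0.11, Pdk1 -0.31 to 0.0082, Pfkl -0.051 to 0.24, Pfkm -0.20 to 0.11, Pfkp -0.096 to 0.11 and Slc2a1 -0.19 to 0.058. Probe sets near the negative controls (Hk2 and Gbe1 in control and control+B12 cells, Pdk2 and Taldo1 in H/R and H/R+B12 cells, and Pfkm, Pfkfb3, Pklr, G6pc3, Rpia, Ldhd and the other transporters) limit what the arrays can measure. The same holds for Hif1an in control+B12 cells.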
